A study of Mus musculus with 12 samples.

Results

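The genes described here are 10 adipocyte genes, Adipoq, Retn, Cfd, Plin1, Cidec, Lgals12, Fabp4, Adrb3, Cebpa and Pparg, followed library by library in 2 hindlimb muscles of mice kept on the ground or flown in space. They are 10 of the 36008 genes listed in the deposited expression table. The list was set by name. All but Pparg were chosen by the flight difference in the quadriceps, as genes lower there in flight. That difference is therefore given as a description and is not tested here. Lgals12, at no more than 3.24 TPM, is under the 5 TPM filter that the study's methods state for its own comparison. Each mouse gave a gastrocnemius, the calf muscle that extends the ankle, and a quadriceps, the thigh muscle that extends the knee. The ground control mice, housed in matching hardware, were M02, M03 and M08, and mice M11, M12 and M20 were exposed to microgravity. All were females aged 30 weeks at the start of the experiment, which ran for 9 weeks. Every mouse of both conditions received phosphate-buffered saline under the skin every 2 weeks. The strain is BALB/c in the study's methods and C57BL/6 in the sample labels. Carcasses were frozen and thawed before the left hindlimb was dissected, and no other genotype or agent is named in the sources used here. The 12 libraries therefore form 4 groups of 3, and the muscles are paired within each mouse.

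Adipocytes are present in skeletal muscle between the fascicles and around vessels and nerves. They store triglyceride in a lipid droplet coated by perilipin 1 and CIDEC, and release it when catecholamines act on beta-adrenergic receptors. The nuclear receptor PPARγ and the factor C/EBPα switch on the adipocyte program together, and mature adipocytes secrete adiponectin, resistin and complement factor D.

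Expression is given as TPM, transcript abundance scaled to a total per library and corrected for transcript length. The listed genes summed to between 923295 and 946314 TPM in the gastrocnemius and between 952229 and 966638 in the quadriceps. The totals thus differed between the muscles. The libraries carried the defining transcripts of skeletal muscle: 8 fiber genes summed to between 67619 and 90531 TPM. The 10 adipocyte genes summed to between 190 and 278 TPM in the ground gastrocnemius, between 195 and 255 in the flight gastrocnemius, between 338 and 627 in the ground quadriceps and between 214 and 299 in the flight quadriceps. The ground quadriceps of M08 had a value above 0 for 18172 genes, fewer than any other library (20291 to 21265). Leptin (Lep), a defining product of white adipocytes, was listed at no more than 1.42 TPM in any library. All 10 members were above 0 in every library, the lowest value being 0.75 TPM for Lgals12.

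The starts of these genes are shown because their transcripts moved together between libraries. RefSeq start sites on GRCm38.p6 were found for 7 of the 10 genes, with 10 start sites in all, and Fabp4, Adrb3 and Lgals12 have no entry. The 250 bases before the start are given 5′ to 3′ for 5 of them, in lower case, with capitals marking a match to TTNNGCAA, a C/EBP motif, or to TATAAA, on either strand. None of these windows overlaps an exon of the GENCODE vM21 annotation.
Adipoq, chr16:23146286-23146535, plus strand: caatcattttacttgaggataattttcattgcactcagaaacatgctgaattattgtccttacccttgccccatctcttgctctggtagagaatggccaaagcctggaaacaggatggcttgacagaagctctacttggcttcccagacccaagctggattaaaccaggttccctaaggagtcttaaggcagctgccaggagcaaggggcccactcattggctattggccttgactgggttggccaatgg
Retn, chr8:3655520-3655769, plus strand: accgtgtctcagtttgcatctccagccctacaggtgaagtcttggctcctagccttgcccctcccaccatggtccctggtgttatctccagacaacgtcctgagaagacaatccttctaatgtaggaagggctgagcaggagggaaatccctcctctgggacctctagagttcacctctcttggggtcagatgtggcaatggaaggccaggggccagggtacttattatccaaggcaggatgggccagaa
Cidec, start inside the annotated gene, chr6:113434765-113435014, minus strand: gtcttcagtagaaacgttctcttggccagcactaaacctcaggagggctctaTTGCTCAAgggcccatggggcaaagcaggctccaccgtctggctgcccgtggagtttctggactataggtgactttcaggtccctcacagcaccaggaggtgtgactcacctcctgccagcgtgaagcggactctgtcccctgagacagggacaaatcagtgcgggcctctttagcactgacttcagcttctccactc
Cebpa, chr7:35119043-35119292, plus strand: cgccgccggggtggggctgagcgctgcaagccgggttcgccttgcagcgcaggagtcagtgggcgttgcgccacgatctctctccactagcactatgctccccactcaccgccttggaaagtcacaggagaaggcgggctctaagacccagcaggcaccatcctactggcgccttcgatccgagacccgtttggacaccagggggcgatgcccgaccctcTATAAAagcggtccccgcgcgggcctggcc
Pparg, start inside the annotated gene, chr6:115421816-115422065, plus strand: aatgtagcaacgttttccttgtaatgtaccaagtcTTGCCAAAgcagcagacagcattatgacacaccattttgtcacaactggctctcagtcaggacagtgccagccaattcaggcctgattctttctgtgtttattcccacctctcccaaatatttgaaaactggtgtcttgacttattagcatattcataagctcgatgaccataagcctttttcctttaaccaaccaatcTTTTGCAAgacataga

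The C/EBP motif was present in 3 of the 10 windows, those of Plin1, the Cidec start shown and the Pparg start shown, against 9.56% of 32851 promoter windows of the same length. The Pparg window held it at 2 places, the nearer of them 16 to 9 bases before the start. A TATAAA match was present in 2 of the 10 windows, Cebpa and another Pparg start, against 12.4% of all windows. The PPAR DR1 motif, a direct repeat bound by PPARγ with its partner RXR, was found in 0 of the 10 windows and in 0.338% of all windows. Such matches describe the letters in these windows and nothing about binding.

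Among the secreted products, adiponectin (Adipoq, chr16:23146536-23158028 on GRCm38) measured 29.99, 17.8 and 11.98 TPM in the ground quadriceps of M02, M03 and M08, and 7.65, 6.42 and 11.8 TPM in the flight quadriceps of M11, M12 and M20. The gastrocnemius of the same mice gave 12.1, 8.39 and 3.81 TPM on the ground and 9.16, 10.3 and 5.41 TPM in flight. In the quadriceps every flight library was below every ground library, by a margin of less than 1 TPM between M08 and M20, whereas the gastrocnemius groups overlapped. The flight minus ground difference was -1.07 ± 0.34 (SE) in the quadriceps and 0.10 ± 0.37 in the gastrocnemius, both on the log2(TPM + 1) scale used for every difference below. In these whole-muscle samples, fewer adipocytes and less of a transcript per adipocyte cannot be told apart.

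Resistin (Retn, chr8:3655770-3660110), a secreted cysteine-rich hormone, measured 27.5, 18.9 and 10.8 TPM in the ground quadriceps and 6.97, 4.33 and 7.7 TPM in the flight quadriceps, with mice in the same order. Its gastrocnemius values were 9.2, 6.69 and 3.39 TPM on the ground and 5.79, 5.69 and 2.48 TPM in flight. Resistin had the widest range of the 10 genes, 11.1-fold between its highest and lowest library. The difference was -1.39 ± 0.34 (SE) in the quadriceps, the largest of the list, and -0.37 ± 0.36 in the gastrocnemius, where the groups overlapped.

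Complement factor D, or adipsin (Cfd, chr10:79890853-79892655), is a serine protease of the alternative complement pathway. It measured 98.8, 77.1 and 43.4 TPM in the ground quadriceps against 36.2, 21.7 and 41.7 TPM in flight. In the gastrocnemius it gave 52.6, 42.6 and 24.2 TPM on the ground and 31.2, 45.7 and 18.6 TPM in flight. The quadriceps groups were again separate, by 43.4 TPM in ground M08 against 41.7 in flight M20. The difference was -1.09 ± 0.34 (SE) in the quadriceps and -0.33 ± 0.36 in the gastrocnemius.

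Of the lipid droplet genes, perilipin 1 (Plin1, chr7:79720218-79732903), which coats the droplet and controls access of lipases, measured 30.9, 15.3 and 10.8 TPM in the ground quadriceps and 6.35, 7.28 and 9.54 TPM in the flight quadriceps. Its values in the gastrocnemius were 10.8, 10.6 and 5.85 TPM on the ground and 9.26, 11.1 and 4.75 TPM in flight. The difference was -1.08 ± 0.35 (SE) in the quadriceps and -0.13 ± 0.31 in the gastrocnemius. Without the ground quadriceps of M02 the quadriceps difference of Plin1 was -0.68.

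Cidec (chr6:113424634-113435760), whose protein enlarges lipid droplets by fusion, measured 21.4, 15.5 and 12.4 TPM in the ground quadriceps and 4.02, 6.21 and 6.68 TPM in flight. The gastrocnemius values were 10.4, 8.24 and 4.23 TPM on the ground and 5.53, 10.3 and 4.24 TPM in flight. Cidec showed the clearest separation in the quadriceps, since the lowest ground library was 12.4 TPM and the highest flight library 6.68 TPM. The difference was -1.38 ± 0.24 (SE) in the quadriceps and -0.17 ± 0.35 in the gastrocnemius.

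Galectin-12 (Lgals12, chr19:7596660-7607193), a sugar-binding protein of adipocyte lipid droplets, was the lowest of the 10. It measured 3.24, 2.19 and 1.57 TPM in the ground quadriceps and 0.766, 0.751 and 1.02 TPM in the flight quadriceps. In the gastrocnemius it gave 2.31, 1.68 and 1.12 TPM on the ground and 1.12, 1.66 and 1.29 TPM in flight. Its quadriceps groups did not overlap, but at no more than 3.24 TPM in any library it was under the 5 TPM that a gene had to exceed in at least 1 library to be tested. In a fit without that filter its quadriceps difference was -0.83 ± 0.22 (SE).

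**Figure D1:**
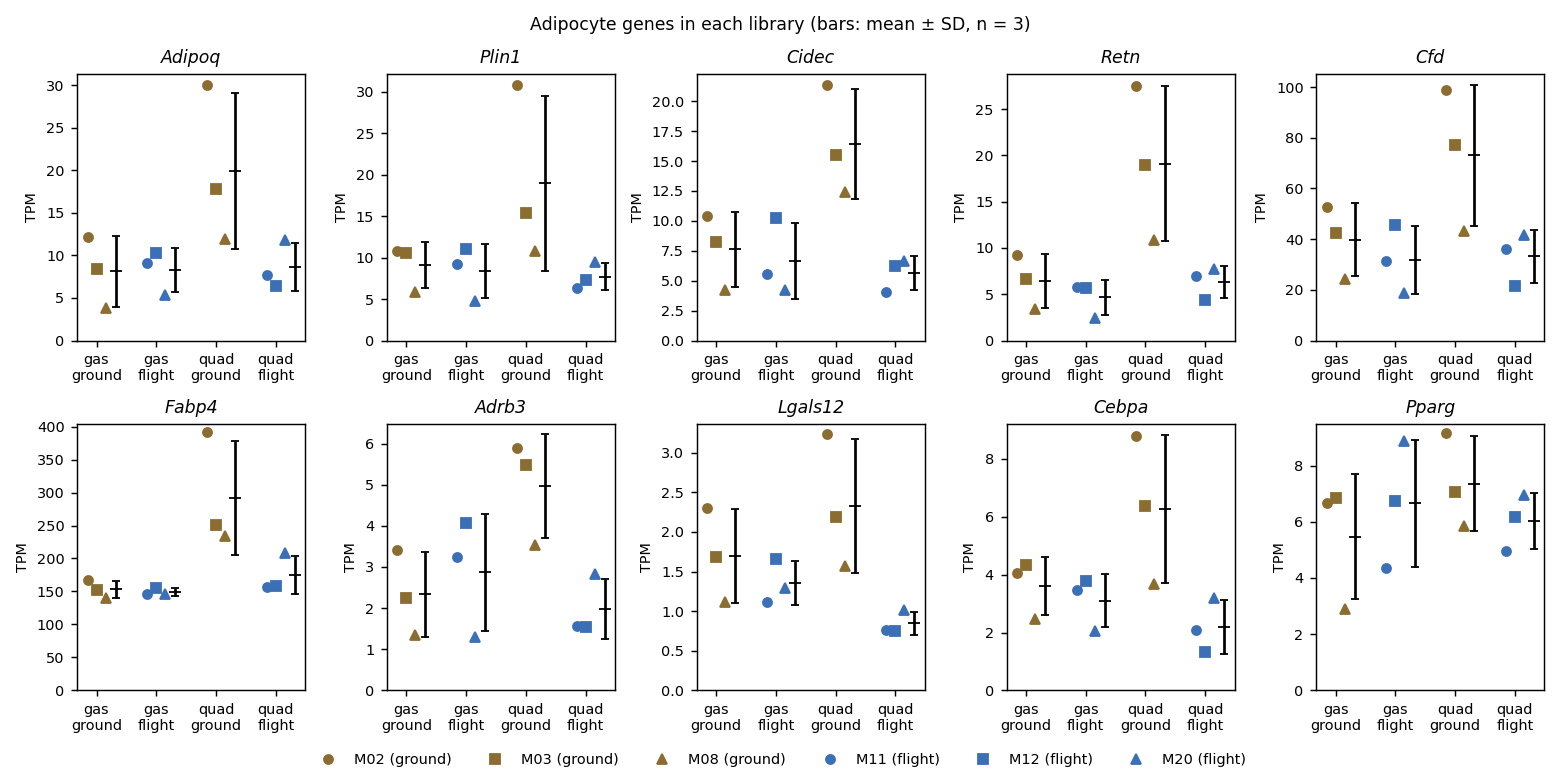
TPM of each of the 10 genes on a linear vertical axis, by group along the horizontal axis (gas, gastrocnemius; quad, quadriceps). Each symbol is the library of a mouse, and the bars give the mean ± SD of 3 libraries. The ground quadriceps of M02 is the highest point in all 10 panels, and the flight quadriceps lies below the ground quadriceps in every panel but that of Pparg.

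The fatty acid carrier Fabp4 (chr3:10204088-10208576) was the most abundant of the 10 and is known from capillary endothelium as well as adipocytes. It measured 392, 251 and 234 TPM in the ground quadriceps and 157, 159 and 208 TPM in flight. The gastrocnemius gave 167, 153 and 141 TPM on the ground and 146, 156 and 146 TPM in flight, with a range of only 141 to 167 TPM over its 6 libraries. Fabp4 varied least of the list, 2.79-fold between its highest and lowest library. Its difference was -0.71 ± 0.21 (SE) in the quadriceps and -0.04 ± 0.08 in the gastrocnemius. Endothelial markers, summed over 8 genes, measured 172 to 201 TPM in the ground quadriceps and 138 to 208 TPM in the flight quadriceps, and their part in the Fabp4 values was not tested.

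The β3-adrenergic receptor (Adrb3, chr8:27225776-27250616), through which catecholamines drive lipolysis in rodent adipocytes, measured 5.9, 5.48 and 3.54 TPM in the ground quadriceps and 1.57, 1.54 and 2.83 TPM in the flight quadriceps. Its gastrocnemius values were 3.41, 2.25 and 1.36 TPM on the ground and 3.25, 4.06 and 1.3 TPM in flight. The difference was -1.01 ± 0.25 (SE) in the quadriceps and 0.18 ± 0.35 in the gastrocnemius. Adrb3 values are uncertain, since 22.0% of the distinct 31-base words of its vM21 transcripts also occur in transcripts of other genes, mostly Gm45470. For the other 9 genes that share was between 0% and 3.23%.

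Of the transcription factors, Cebpa (chr7:35119293-35121928) measured 8.79, 6.37 and 3.67 TPM in the ground quadriceps and 2.09, 1.34 and 3.18 TPM in flight. In the gastrocnemius it gave 4.06, 4.33 and 2.45 TPM on the ground and 3.46, 3.78 and 2.06 TPM in flight. The difference was -1.16 ± 0.33 (SE) in the quadriceps and -0.17 ± 0.24 in the gastrocnemius, so Cebpa followed the pattern of the secreted and droplet genes.

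Pparg (chr6:115360951-115490399) stood apart. It measured 9.17, 7.07 and 5.83 TPM in the ground quadriceps and 4.97, 6.18 and 6.95 TPM in the flight quadriceps, and these groups overlapped. The gastrocnemius gave 6.65, 6.85 and 2.9 TPM on the ground and 4.36, 6.74 and 8.86 TPM in flight. Its flight gastrocnemius value was highest in M20, the library in which 7 of the 10 genes were lowest among the flight gastrocnemius. The difference was -0.24 ± 0.19 (SE) in the quadriceps and 0.27 ± 0.32 in the gastrocnemius. Flight Pparg was 82.0% of ground in the quadriceps by the group means, whereas the 9 other genes were between 33.2% (Retn) and 59.7% (Fabp4) of ground.

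In the quadriceps, 9 of the 10 genes had every flight library below every ground library. Over the 10481 genes tested that share was 8.12%, but the quadriceps difference chose these genes and nothing is read from the count. The median difference of the 9 tested members was -1.08, against 0.01 for all tested genes. Without the ground quadriceps of M02 that median was -0.83, and leaving out each of the other libraries gave -0.91 to -1.40. All 9 members were lower in flight, as were 47.9% of all tested genes.

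The gastrocnemius of the same mice is the comparison that did not choose the genes. There the flight and ground groups overlapped for all 10 genes, while 8.55% of all tested genes had every flight library below every ground library and 12.5% had every flight library above. A call required both a change over 1.5-fold and a limma adjusted p under 0.05. Of the 9 tested members 0 met it, as did 0.229% of all tested genes. At an unadjusted p under 0.05, 0 of the 9 passed in limma, against 15.1% of all tested genes. Their adjusted p-values ran from 0.659 (Retn) to 0.919 (Adipoq). The median difference was -0.13, with 6 genes lower and 3 higher in flight, and 46.4% of all tested genes were lower. Leaving out a library moved that median between -0.37 and 0.06, so no direction held over the 6 libraries. The standard error was 0.08 for Fabp4 and between 0.24 and 0.37 for the others, so that a small difference could not have been seen in most of them. Whether the flight effect differed between the muscles was not tested for these genes, because the quadriceps difference had chosen them.

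**Figure D2:**
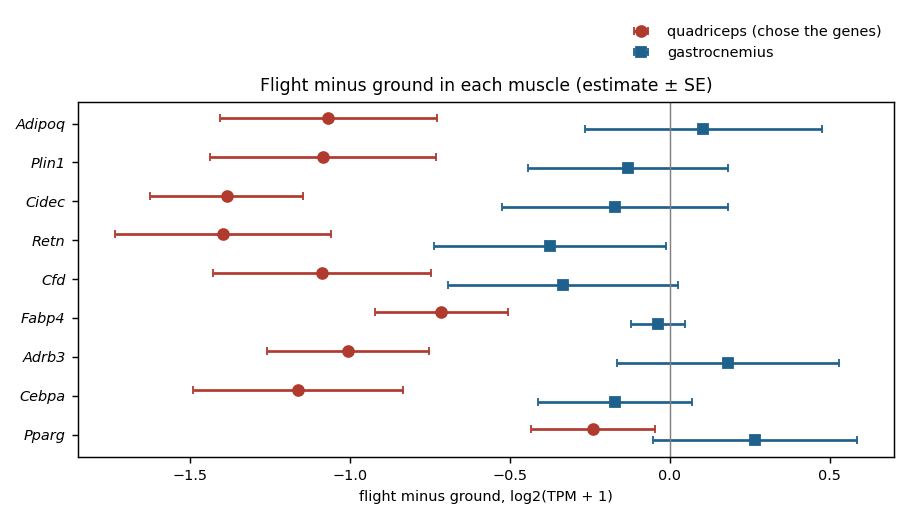
Flight minus ground on the log2(TPM + 1) scale (horizontal axis) for the 9 tested genes, with the limma estimate ± SE, in the quadriceps (circles) and the gastrocnemius (squares). The quadriceps values run from -1.39 (Retn) to -0.24 (Pparg), and the gastrocnemius values lie between -0.37 and 0.27 on both sides of 0.

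The muscles were then set against each other within each mouse, as quadriceps TPM over gastrocnemius TPM. On the ground the quadriceps was higher for all 10 genes in each of the 3 mice, with a median ratio of 2.11 in M02, 1.73 in M03 and 1.92 in M08. In flight the quadriceps was higher for 4 of the 10 genes in M11, 1 in M12 and 8 in M20, with median ratios of 0.78, 0.61 and 1.79. The median ratio of M20 was thus inside the range of the ground mice, and those of M11 and M12 were below it. These ratios contain the quadriceps values that chose the genes, so they are a description and nothing is read from the counts. The share of all genes higher in the quadriceps was not computed for single mice.

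Averaged over ground and flight, the quadriceps minus gastrocnemius difference was tested in limma with mouse as a block. That average includes the ground quadriceps values whose height chose the genes. They spread more than the flight values, with an SD of 9.20 against 2.82 TPM for Adipoq and 8.36 against 1.77 for Retn. The p-values of the members are therefore not free of that choice. Resistin was higher in the quadriceps by 0.92 ± 0.18 (SE; limma adjusted p = 0.00781; higher in 5 of 6 mice) and Adipoq by 0.64 ± 0.18 (limma adjusted p = 0.0337; higher in 4 of 6 mice). These 2 of the 9 tested genes were called higher in the quadriceps, as were 2.19% of all tested genes. Fabp4 was higher in the quadriceps in 6 of 6 mice, which held for 26% of all tested genes. Its difference of 0.55 ± 0.09 (SE) had a limma adjusted p of 0.00358 and was under the 1.5-fold limit, and 24.4% of all tested genes were higher in the quadriceps at such a p with no limit on the fold. The other 6 differences were between 0.12 (Cebpa) and 0.47 (Cfd), with limma adjusted p-values from 0.0587 (Cidec) upward, and none was called. Adrb3 and Cebpa exceeded 5 TPM only in the ground quadriceps, so that their tests and the medians over the 9 genes include members let in by the higher group. Of the 6 nerve and Schwann cell genes, 5 were called lower in the quadriceps, as were 119 of all 10481 tested genes. Pmp2, among the 5, exceeded 5 TPM only in the flight gastrocnemius and so was let in by the higher group. The nerve and Schwann cell list summed to between 122 and 266 TPM in the gastrocnemius and between 47.0 and 77.0 TPM in the quadriceps. Its part in the members' values was not tested.

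The median of all tested genes was itself 0.11 higher in the quadriceps. Relative to that shift the differences were 0.81 for Retn, 0.53 for Adipoq and 0.44 for Fabp4. With libraries rescaled by their median ratio, the limma adjusted p was 0.0142 for Retn, 0.0547 for Adipoq and 0.00811 for Fabp4, and the call of Adipoq was lost. That rescaling also turned the split of all calls, from 230 higher and 119 lower in the quadriceps to 125 higher and 171 lower. Retn was called under 11 of 12 settings and Adipoq under 4 of 12. Every setting keeps ground quadriceps values that chose the genes, so these counts are no independent support. By group means, quadriceps over gastrocnemius was 2.45 on the ground and 1.04 in flight for Adipoq, and 2.97 and 1.36 for Retn. Without mouse M20 the median of the 9 members fell from 0.45 to 0.22, and Adipoq measured 0.40. Without mouse M12 Cfd was called as well, at 0.76 (limma adjusted p = 0.0113).

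**Figure D3:**
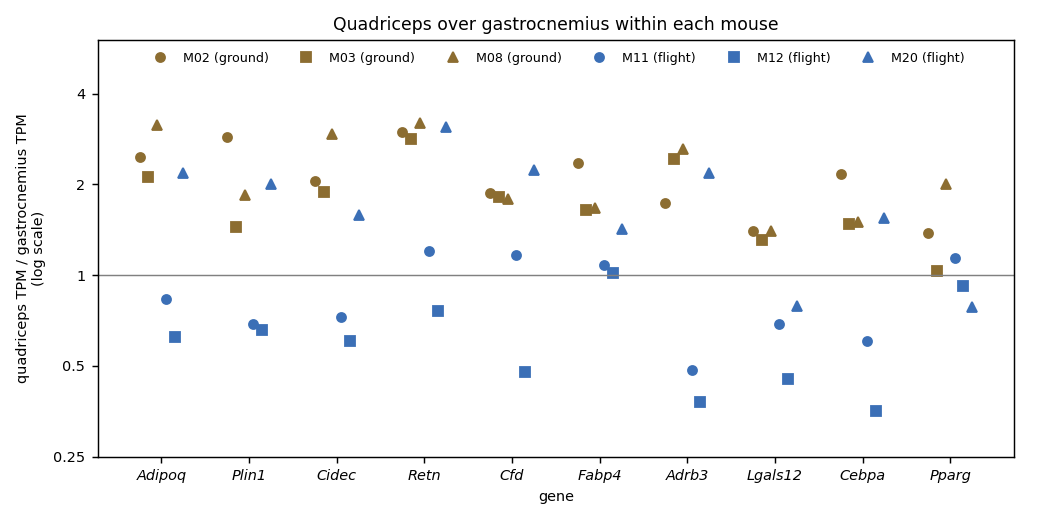
Quadriceps TPM divided by gastrocnemius TPM of the same mouse (vertical axis, log scale) for each of the 10 genes, 1 symbol per mouse. Ratios of the 3 ground mice lie above 1 for all 10 genes, those of M12 lie below 1 for all but Fabp4, and those of M20 lie above 1 for 8 genes.

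The genes varied together from library to library. In the ground quadriceps M02 was highest and M08 lowest for 10 of 10 genes, and in the flight quadriceps M20 was highest for 10 of 10. In the ground gastrocnemius M08 was lowest for 10 of 10 and M02 highest for 8 of 10. In the flight gastrocnemius M12 was highest for 8 of 10. For 8 of 10 genes the ground mice stood in the same order in both muscles, whereas M20, highest of the flight mice in the quadriceps, was lowest for 7 of 10 genes in the gastrocnemius.

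For all 45 pairs of members, Pearson's r was computed over the 6 libraries of each muscle, on log2(TPM + 1), and is given as a description, since the genes share their libraries. In the quadriceps the median r was 0.94, with a range of 0.73 to 0.99, and the median Spearman rho was 0.94. After the flight and ground means were subtracted, which removes the difference that chose the genes, the median r was 0.85, with a range of 0.48 to 0.99. In the gastrocnemius the median r was 0.83 (rho 0.77), and 0.88 after the group means were subtracted. Pairs drawn from all tested genes had a median r of 0.05 to 0.08. With the group means subtracted, the share of all gene pairs that reached the members' median was 3.73% in the gastrocnemius and 4.52% in the quadriceps.

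Pparg was the exception in the gastrocnemius. Its median r with the 9 other members was 0.16 there, and 0.29 after the group means were subtracted, whereas the other members had medians of 0.74 to 0.94 after subtraction. This rested on the flight gastrocnemius of M20: without that library the median r of Pparg was 0.86, and 0.89 after subtraction. Without the ground gastrocnemius of M08, in which Pparg and the other genes were all low, it was -0.47, and -0.61 after subtraction. In the quadriceps Pparg ran with the others at a median r of 0.79, and 0.86 after subtraction.

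**Figure D4:**
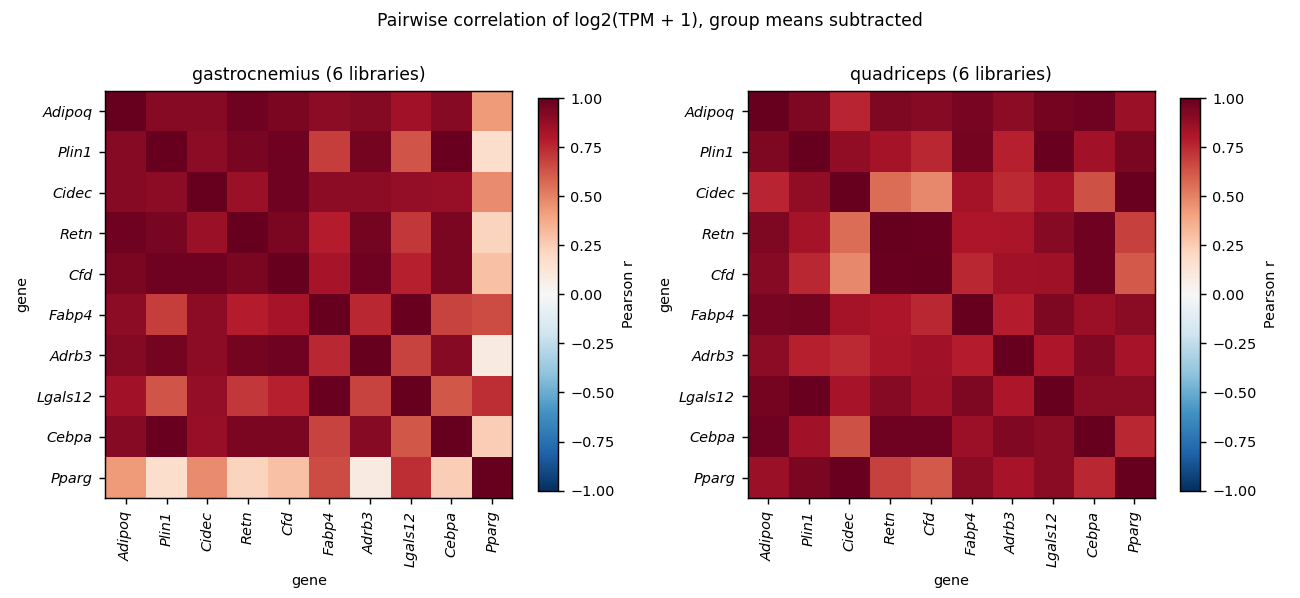
Pearson's r of log2(TPM + 1) for each pair of the 10 genes after the flight and ground means were subtracted, over the 6 libraries of the gastrocnemius (left) and of the quadriceps (right), with genes on both axes and r from -1 to 1 in color. All pairs are above 0, and the Pparg row of the gastrocnemius holds the palest cells.

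Ratios to Adipoq show the same in TPM. The ratio of Plin1 to Adipoq stayed between 0.81 and 1.54 over the 12 libraries, a 1.90-fold range, while Plin1 itself ranged 6.50-fold. Cfd ranged 1.93-fold relative to Adipoq, Adrb3 1.996-fold, Cidec 2.11-fold and Retn 2.33-fold, each less than its own range in TPM. For Fabp4 the ratio ranged 2.83-fold, no less than its TPM at 2.79-fold. For Pparg the ratio ranged 5.36-fold and the TPM 3.16-fold, so Pparg was steadier on its own than relative to Adipoq.

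Similar co-variation was also seen in lists for other cells. With the group means subtracted, the median r among 5 blood genes was 0.92 in each muscle, the gastrocnemius and quadriceps medians among 6 nerve and Schwann cell genes were 0.98 and 0.72, and those among 11 fatty acid synthesis genes 0.35 and 0.87. Among 8 endothelial genes it was 0.03 and 0.26. Tight co-variation was thus not particular to the adipocyte genes.

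The 10 other genes whose profile over the 12 libraries was most like the mean of the members, with the 4 group means subtracted, were Cdo1, Cd59b, Stat6, Mgll, Ankrd52, Gnb2, C4b, Gm10135, Tnks1bp1 and Fam222b, with r from 0.95 to 0.93. Cdo1, an enzyme of cysteine breakdown, also followed them when the means were kept (r = 0.93), at 19.6 TPM in the ground quadriceps and 9.48 in the flight quadriceps. C4b, a complement component, did so with r = 0.87. Mgll, which cleaves the last fatty acid from glycerol in lipolysis, had r = 0.51 with the means kept. Ankrd52 had r = 0.01 with the means kept. Its group mean was lowest in the ground quadriceps, at 21.0 TPM, where those of the members were highest. With the means subtracted, the tested members themselves had r from 0.56 (Pparg) to 0.99 (Adipoq). Fiber genes ran from -0.50 (Myh7) to 0.91 (Acta1), and endothelial genes from -0.21 (Cdh5) to 0.89 (Tie1). Some genes of other cells thus followed the members' profile as closely as some members did.

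Genes of the surrounding pathways were taken from lists set by function, with earlier results of these data known. The study itself reports lipid metabolism as enriched among the genes lower in the flight quadriceps. The quadriceps counts of these lists are therefore a description and no independent support. In the quadriceps 0 genes of these lists were called by limma, and 0.0286% of all tested genes were. The study, using DESeq2 with the same fold and adjusted p limits, reports more differing genes in each muscle. A missing limma call therefore does not show that a gene was unchanged. At an unadjusted p under 0.05 in limma, 9 of 14 genes of triglyceride synthesis and lipolysis were lower in flight, 5 of 11 of fatty acid synthesis and 4 of 11 other adipocyte markers, against 5.18% of all tested genes. Elovl6, Adig and Slc36a2 exceeded 5 TPM only in the ground quadriceps and so were tested only because that group was high. Without such genes the counts were 9 of 14, 5 of 10 and 3 of 9, against 5.02% of all genes tested through another group, and the median differences were -0.39, -0.86 and -0.19. Agpat2, which makes phosphatidic acid on the way to triglyceride, measured 21.3, 12.4 and 12.4 TPM in the ground quadriceps and 4.77, 4.94 and 4.37 TPM in flight, a difference of -1.48 ± 0.21 (SE; limma adjusted p = 0.224). Its groups were well apart, and its gastrocnemius difference was -0.57 ± 0.12 (limma adjusted p = 0.133). Pck1, which supplies glycerol for triglyceride in adipocytes, differed by -1.69 ± 0.50 (limma adjusted p = 0.354), and its ground values of 34.0, 8.05 and 10.4 TPM were highest in M02, as for the members.

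Fatty acid synthase (Fasn) measured 104, 79.0 and 29.6 TPM in the ground quadriceps and 26.7, 14.4 and 23.0 TPM in the flight quadriceps, a difference of -1.55 ± 0.46 (SE; limma adjusted p = 0.355). Thrsp, a regulator of fat synthesis, differed by -1.36 ± 0.42 (limma adjusted p = 0.366). Slc7a10, an amino acid transporter found on white adipocytes, measured 5.26, 5.76 and 5.55 TPM on the ground and 2.60, 1.76 and 2.15 TPM in flight. Its difference was -1.05 ± 0.17 (limma adjusted p = 0.224), and unlike the members it was not highest in M02. Adig, a small adipocyte protein, measured 8.51, 4.79 and 5.55 TPM on the ground and 1.80, 1.73 and 3.91 TPM in flight, values that also let it into the test and therefore support nothing.

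Of 12 other adipogenic transcription factors tested, 4 were lower and 8 higher in the flight quadriceps. Of these, 0 were lower at an unadjusted p under 0.05 in the quadriceps and 1, Ppard, was higher at 0.65 ± 0.24 (SE; limma adjusted p = 0.426), against 5.66% of all tested genes higher. Their median difference was 0.03. Among 7 receptors for adipokines, catecholamines and insulin, 1 was lower at an unadjusted p under 0.05, the adiponectin receptor Adipor2 at -0.21 ± 0.07 (limma adjusted p = 0.378). In the gastrocnemius 0 genes of these lists were called by limma either, and at an unadjusted p under 0.05, 5 of 14 genes of triglyceride synthesis and lipolysis, 3 of 11 other adipocyte markers, 3 of 7 receptors, 1 of 12 transcription factors and 0 of 11 fatty acid synthesis genes were lower in flight, against 6.55% of all tested genes. In the last of these lists 1 gene, Scd2, was higher at 0.46 ± 0.18 (SE; limma adjusted p = 0.288).

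**Figure D5:**
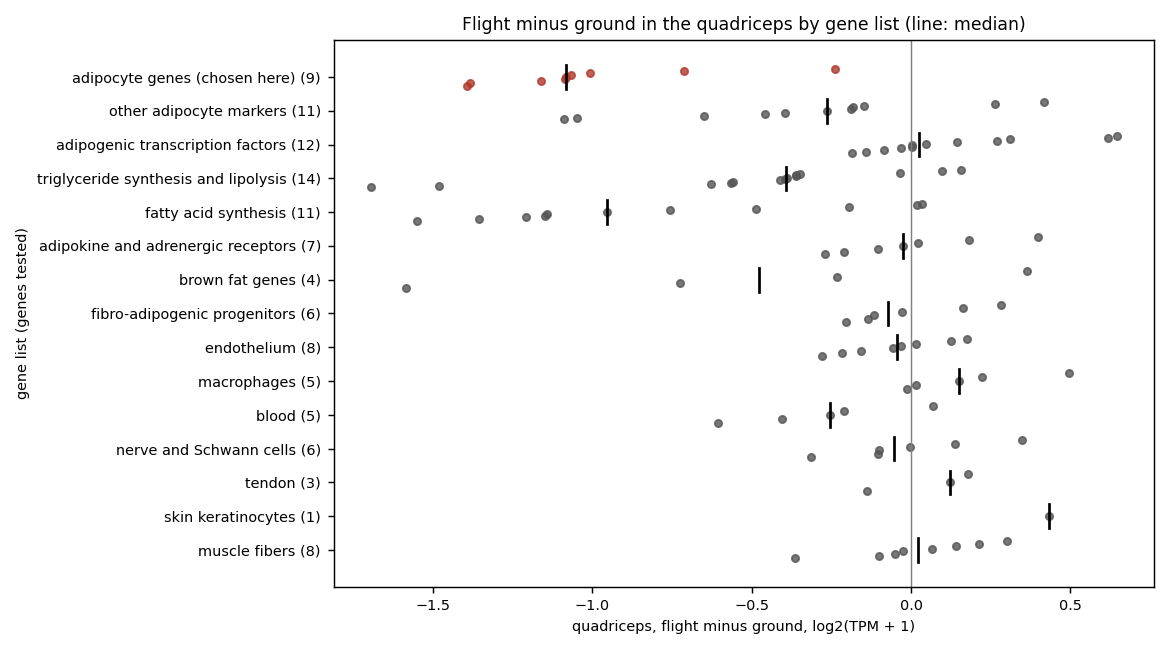
Flight minus ground in the quadriceps on the log2(TPM + 1) scale (horizontal axis) for the tested genes of each list (vertical axis, number of genes in parentheses), 1 point per gene and a line at the median. The medians are -1.08 for the adipocyte genes, -0.95 for fatty acid synthesis and -0.39 for triglyceride synthesis and lipolysis. The medians of the other lists run from -0.48 (brown fat) to 0.43 (keratinocytes, 1 gene). Of the brown fat genes, Ucp1 and Cidea exceeded 5 TPM only in the ground quadriceps. Without genes let in that way, the medians were 0.07 for brown fat and -0.86 for fatty acid synthesis.

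The ground quadriceps of M02, highest for all 10 members, had the highest value of 4 of 8 brown fat genes as well. These were Ucp1, Cidea, Dio2 and Cox8b, and not Elovl3, Prdm16, Zic1 and Ppargc1a. The share of all genes highest in this library was not computed, so nothing is read from the count. Ucp1 and Cidea exceeded 5 TPM only in the ground quadriceps, and Cox8b was abundant in every library, at 369 to 670 TPM. Ucp1, the uncoupling protein of brown adipocytes, measured 12.1, 0.15 and 1.31 TPM in the ground quadriceps of M02, M03 and M08 and no more than 0.30 TPM in the 9 other libraries. Cidea, a relative of Cidec typical of brown adipocytes, measured 5.87, 1.43 and 1.35 TPM there and no more than 1.48 TPM in the flight quadriceps. The part of these transcripts in the members' values was not tested, and the members' median difference without this library is given above.

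Markers of other cells were compared for the same quadriceps libraries. Fibro-adipogenic progenitors, the cells from which muscle adipocytes form, summed over 8 genes to 173 to 221 TPM on the ground and 207 to 249 TPM in flight, with 0 of 6 tested genes lower at an unadjusted p under 0.05 in limma. Macrophage genes summed to 43.5 to 65.3 TPM on the ground and 53.6 to 63.8 in flight, and blood genes to 545 to 896 TPM and 460 to 901 TPM. Of the blood genes 4 of 5 were lower in flight, with a median difference of -0.25, and their part in the members' values was not tested. Of the endothelium, macrophage, blood, nerve and tendon genes, with 8, 5, 5, 6 and 3 tested, 0 were lower at an unadjusted p under 0.05 in limma. Over all tested genes 5.18% were lower, so nothing is read from a 0 in lists this short, the progenitor list included. Of the 8 fiber genes 1 was lower at that p, Myh2 at -0.36 ± 0.08 (SE; limma adjusted p = 0.298), and 1 was higher, Myh4 at 0.21 ± 0.09 (limma adjusted p = 0.445). Of the skin keratinocyte genes, Krt5 and Krt1 were listed at 0 in all 12 libraries, Krt14 and Dsp were at no more than 0.27 TPM and Krt10 was between 0.49 and 1.97 TPM. Trp63, the only gene of that list that was tested, differed by 0.43 ± 0.12 (SE; limma adjusted p = 0.344), with every flight quadriceps above every ground quadriceps.

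The deposited splicing tables listed 0 skipped or mutually exclusive exon events in the 10 genes, where 2423 gastrocnemius events and 2416 quadriceps events were listed.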

How the data were processed

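RNA-seq libraries from the gastrocnemius and quadriceps of 6 mice (3 ground control, 3 flight) were used. The deposited values are TPM, which the authors estimated with kallisto 0.46.0 and summed per gene with tximport; the submitters' processing notes also name STAR 2.7.1a and DESeq2 1.26.0. TPM carries no counting depth, so no counting interval is given, precision rests on the 3 libraries of a group, and no count model was run. From the splicing tables only the gene names were read, and the other columns, which include the authors' own comparisons, were not used.

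Genes with TPM above 5 in at least 1 library were kept (10481 genes). limma 3.58.1 (R 4.3.3) was fitted with a trend to log2(TPM + 1), within each muscle for flight against ground and over all 12 libraries with mouse as a block for the muscles. P-values are two-sided, adjusted by the Benjamini-Hochberg method over all tested genes. A fold change on log2(TPM + 1) understates that of low genes. The fit was tested on simulated data.

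The muscles of a mouse are paired because they come from the same animal; deviations from the group means correlated between them with r of -0.12 to 0.33. Members and lists were chosen with earlier results of these data known. All 10 members are given in every library. From each other list, counts and up to 3 genes with the largest difference in the quadriceps were eligible to be named, and the 10 most similar genes were taken by r. Lep, the keratinocyte and brown fat genes outside that rule, and Scd2 were named after their values were seen. Positions are from GENCODE vM21 (GRCm38), and start sites from RefSeq (GRCm38.p6). Alternatives were pseudocount 0.1, no filter, a mean TPM above 1, rescaling by the median ratio, the block and leaving out libraries.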

Additional observations from a re-analysis of the deposited data

How the results depend on the processing

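The number of genes called in the gastrocnemius was 24. It was 4 without the filter on low values, 0 with the replicate number as a block (limma), and 1 to 133 when a library was left out, the highest without the flight library of M11 and the lowest without that of M20. In the quadriceps 3 genes were called, against 1 without the filter, 1 after rescaling by the median ratio, 0 with the replicate block, and 1 to 4 when a library was left out. At an unadjusted p under 0.05 in limma, 1580 and 1136 genes passed in the 2 muscles. The number pairs ground with flight libraries by label alone: deviations of same-numbered libraries correlated with r of -0.14 to 0.11 in the gastrocnemius and -0.18 to -0.07 in the quadriceps. No member was called in the gastrocnemius under any setting.

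Leaving out a gastrocnemius library turned the sign of small differences: Adipoq ran from -0.30 to 0.43, Plin1 from -0.39 to 0.19, Cidec from -0.50 to 0.067, Fabp4 from -0.10 to 0.026, Adrb3 from -0.049 to 0.52, Cebpa from -0.37 to 0.027 and Pparg from -0.063 to 0.50. The difference of Cebpa between the muscles ran from -0.082 to 0.29 when a mouse was left out. Between the muscles, the limma adjusted p of Retn was 0.0521 without the filter and 0.00693 to 0.0304 when a mouse was left out. That of Adipoq was 0.143 without the filter, 0.104 without the block and 0.0228 to 0.0956 when a mouse was left out. Leaving out M03, M08 or M12 brought Fabp4 past 1.5-fold (0.59 to 0.60). The median pairwise r of the members ran from 0.75 to 0.92 in the gastrocnemius and from 0.76 to 0.94 in the quadriceps, group means subtracted, when a library was left out. Depth cannot be read from TPM, and genes under about 3 TPM, such as Lgals12, are the least certain.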
